A study of Mus musculus with 8 samples.

Results

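Lipid droplet coat and fusion genes were read in mouse brown fat that lacked the adenylyl cyclase gene Adcy3 in its adipocytes or kept it. The set holds 10 genes, taken by name from a deposited table of 54385 gene identifiers: the perilipins Plin1, Plin2, Plin3, Plin4 and Plin5, the CIDE genes Cidea, Cideb and Cidec, and the droplet assembly genes Fitm2 and Bscl2. The knockout group (cKO) had 4 libraries from C57BL/6N mice with floxed Adcy3 on both alleles and 1 copy of a Cre driven by the adiponectin promoter, which acts in adipocytes and leaves other cells of the tissue with Adcy3 (genotype entry Adcy3-FL/FL/Adipoq-wt/cre). The control group (WT) had 4 libraries with the same floxed alleles and no Cre (Adcy3-FL/FL/Adipoq-wt/wt), except that the genotype entry of WT replicate 4 carries the Cre. All mice were 20 weeks old and on chow. The labels of the libraries give the tissue as interscapular brown fat and the design text gives it as inguinal, and neither says that libraries are separate animals; p-values therefore cover spread between libraries, which may be technical. Adcy3 itself was lower in cKO, at 17.95 to 25.3 CPM in cKO and 61.7 to 118 CPM in WT, where CPM is the count scaled to library size with TMM factors (log2 fold change -2.26, edgeR adjusted p = 0.000925). WT replicate 4 held 118 CPM, and the lowest WT library was replicate 3.

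A lipid droplet is a core of triglyceride under a single layer of phospholipid, and the proteins on that layer decide how the store grows, fuses and is opened. Droplets form at the endoplasmic reticulum, where Fitm2 and seipin, the product of Bscl2, act. Perilipins then coat them, and CIDE proteins move lipid from smaller into larger droplets at contact sites. In brown fat, adrenergic signalling through cyclic AMP activates protein kinase A, which phosphorylates perilipin 1 and hormone-sensitive lipase and so opens the droplet to lipases.

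None of the 10 genes passed the test between cKO and WT. All 10 passed the filter on low counts and were tested, and edgeR called 0 of them at an adjusted p of 0.05, against 0.0687% of all 14553 genes tested. DESeq2 also called 0 of the 10, against 0.316% of these genes, as did limma-voom, against 0.0687%, and limma-voom with quality weights for the libraries, against 0.0893%. Without a count filter edgeR tested 35502 genes and called 0 of the 10, against 0.262% of all, and 1 of the 10, Plin5, had an unadjusted p under 0.05, against 5.51% of all. By edgeR with the filter 0 of the 10 had an unadjusted p under 0.05, against 5.60% of all genes, and the CPM of cKO and WT libraries overlapped for every one of the 10, whereas they did not overlap for 3.50% of all genes. The log2 fold change (cKO over WT) was positive for 4 and negative for 6, with a median of -0.043, against 0.0093 over all genes. The median size of the change regardless of sign was 0.053, against 0.14 over all genes. The genes were not matched for abundance, and all genes tested include many at far lower CPM than most of the 10. The edgeR intervals were set for each gene alone, without adjustment over the 10, and cover only spread between libraries. Leaving aside Cideb, the lowest bound of a 95% interval was 0.663-fold, for Plin5, and the highest was 1.33-fold, for Fitm2; for Cideb the bounds were 0.609-fold and 1.74-fold.

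**Figure D1:**
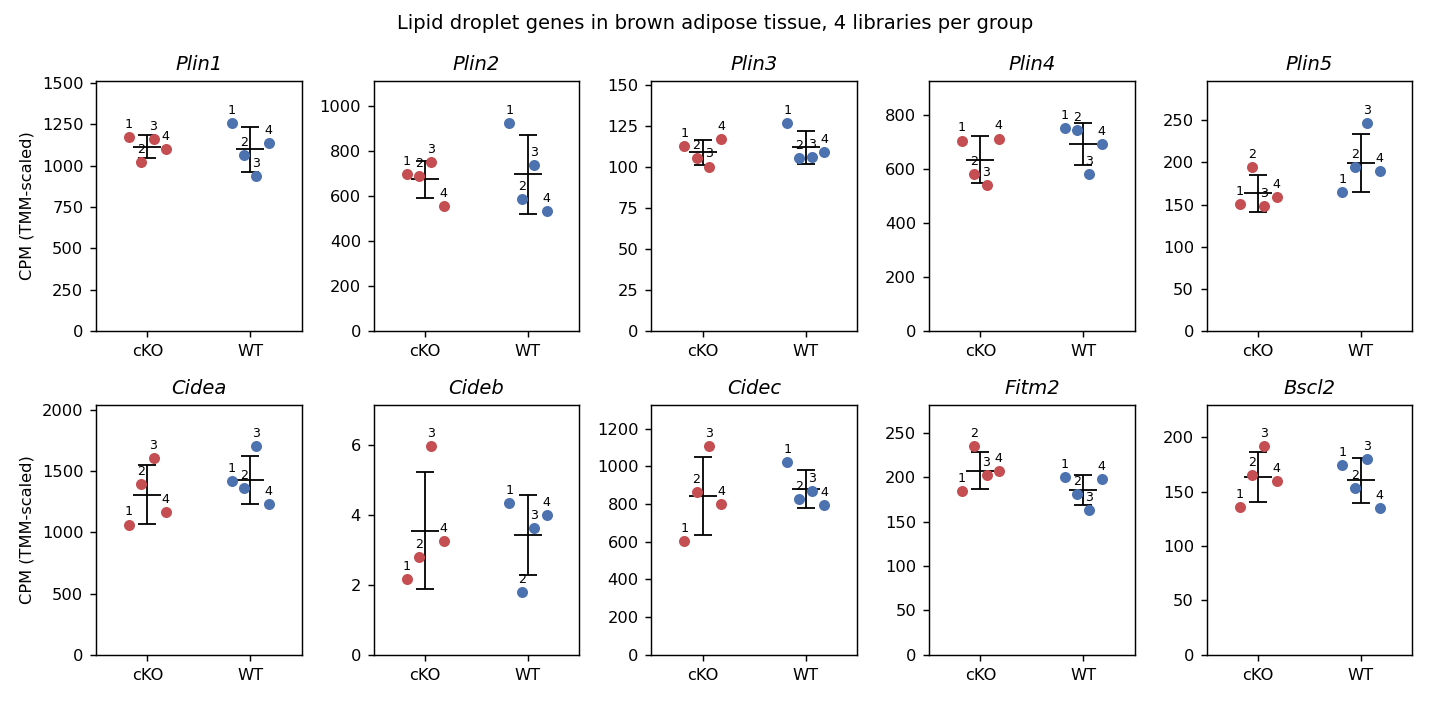
CPM (TMM-scaled, linear axes from 0) of each of the 10 genes in the 4 cKO libraries (red, left) and the 4 WT libraries (blue, right), numbered by replicate, with the mean and SD in black. The groups overlap in every panel, and Plin5 shows the largest shift of the abundant genes, with 3 of 4 cKO libraries at or below 159 CPM and 3 of 4 WT libraries at or above 189.9 CPM.

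**Figure D2:**
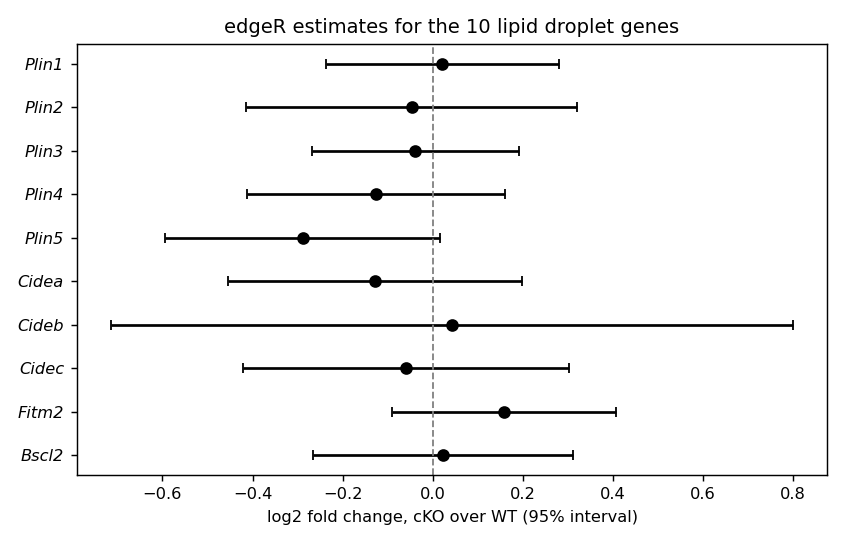
Log2 fold change (cKO over WT) of each gene from edgeR as a point, with its 95% interval as a bar and no change as a dashed line. Every interval includes 0, that of Plin5 only just, with an upper bound of 0.017, and that of Cideb is the widest.

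Levels can be compared between genes only per length, so CPM were divided by kilobases of annotated exon. Cidea, the CIDE protein best known from brown fat, stood highest, with a mean over the 8 libraries of 1227 ± 192 CPM per kb (SD, n = 8), and ranked 30 among the 54131 annotated genes. Cidec, known from white fat, followed at 464 ± 81.7 CPM per kb and then the perilipins: Plin1 at 238 ± 21.6, Plin2 at 195 ± 36.4, Plin4 at 115 ± 14.4 and Plin5 at 86.9 ± 15.8 CPM per kb. Fitm2 stood at 49.5 ± 5.30 CPM per kb, Plin3 at 29.2 ± 2.23, Bscl2 at 27.5 ± 3.42 and Cideb at 2.35 ± 0.892 CPM per kb. The 8-library ranges of neighbours in this order overlapped for Plin1 and Plin2, for Plin4 and Plin5, and for Plin3 and Bscl2, and did not overlap for the other neighbours. Part of the order rests on the length used. With the longest transcript of each gene in place of all annotated exon, Plin1 and Plin2 stood at 393 ± 35.6 and 363 ± 67.6 CPM per kb. The ranges of Cidec and Plin1 then also overlapped, as did those of Fitm2 and Bscl2. Bscl2, at 46.3 ± 5.78 CPM per kb, lay above Plin3, at 30.3 ± 2.31 CPM per kb, without overlap.

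Plin1 encodes the main coat protein of adipocyte droplets, which holds back lipolysis until it is phosphorylated. It had 1175, 1022, 1161 and 1099 CPM in cKO replicates 1 to 4 and 1259, 1063, 934.9 and 1136 CPM in WT replicates 1 to 4. The lowest and the highest library were both WT, with all cKO libraries between them. The fitted fold was 1.01 (95% interval 0.848 to 1.21, edgeR adjusted p = 0.990).

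Plin2, a coat protein made in most cell types and kept stable by the lipid it binds, had 699.5, 689, 752 and 557 CPM in cKO replicates 1 to 4 and 926, 588, 737 and 535 CPM in WT replicates 1 to 4. WT libraries spread over a wider range, with both the highest and the lowest value, and their coefficient of variation was 25.2%, against 12.3% in cKO. The log2 fold change was -0.047 (SE 0.17, edgeR adjusted p = 0.983), and it was 0.12 without WT replicate 1. Plin3, a soluble perilipin that moves onto newly formed droplets, was the steadiest of the 10, with a coefficient of variation of 7.62% over all libraries. It ran from 100.4 to 117 CPM in cKO and from 106 to 127 CPM in WT (log2 fold change -0.039, edgeR adjusted p = 0.977).

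Plin4, known from white fat and muscle, had 705, 580, 539 and 712.5 CPM in cKO replicates 1 to 4 and 752, 743, 581 and 692 CPM in WT replicates 1 to 4. Replicates 1 and 4 of cKO stood within the WT range and replicates 2 and 3 at or below the lowest WT library, while WT replicates 1 and 2 lay above every cKO library. Its log2 fold change of -0.13 lay between bounds of -0.41 and 0.16 (95%, edgeR adjusted p = 0.928) and was negative under all 18 alternatives.

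Plin5 had the lowest p of the 10. It encodes the perilipin of oxidative tissues, which links droplets to mitochondria. It had 151, 195, 148 and 159 CPM in cKO replicates 1 to 4 and 165, 195, 247 and 189.9 CPM in WT replicates 1 to 4. Replicate 2 of cKO stood at the level of WT, WT replicate 1 stood near the other cKO libraries, and WT replicate 3 lay above all. The means were 163 ± 21.8 CPM in cKO and 199 ± 34.3 CPM in WT (SD, n = 4 each), a fold of 0.819 (95% interval 0.663 to 1.01, edgeR adjusted p = 0.886, unadjusted p = 0.0618). The log2 fold change of -0.29 was negative under all 18 alternatives, between -0.39 and -0.16, and the smallest adjusted p among them was 0.459, so it passed under none. The value nearest to 0 came without WT replicate 3.

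On the genome Plin5 and Plin4 are neighbours. Plin5 (ENSMUSG00000011305) spans 56111601 to 56117596 and Plin4 (ENSMUSG00000002831) 56100591 to 56109803 on the minus strand of chromosome 17 in GRCm38, with 1797 bases between them. Plin3 (ENSMUSG00000024197) lies 159879 bases beyond, at 56277476 to 56292873 on the same strand. Plin1 (ENSMUSG00000030546) spans 79720218 to 79732903 on chromosome 7 and Plin2 (ENSMUSG00000028494) 86648386 to 86670060 on chromosome 4, both on the minus strand.

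Of the perilipin promoters in the RefSeq table (GRCm38.p6, 250 bases before to 50 after each start), those of Plin2 and Plin5 are shown, because Plin2 holds the only match to a DR1 element, the kind of site PPAR factors bind, and Plin5 is the gene with the lowest p. A DR1 was read as a pair of AGGTCA copies with 1 base between them, with at most 2 mismatches, on either strand. In Plin2 the match lies on the opposite strand, with 2 mismatches, begins at position -225 from the start and is set in capitals; it includes the single AGGTCA match of that window, which is chr4:86670010-86670309, minus strand. In Plin5 the capitals mark AGGTCA, at position -170, in the window chr17:56117499-56117798, minus strand.
Plin2: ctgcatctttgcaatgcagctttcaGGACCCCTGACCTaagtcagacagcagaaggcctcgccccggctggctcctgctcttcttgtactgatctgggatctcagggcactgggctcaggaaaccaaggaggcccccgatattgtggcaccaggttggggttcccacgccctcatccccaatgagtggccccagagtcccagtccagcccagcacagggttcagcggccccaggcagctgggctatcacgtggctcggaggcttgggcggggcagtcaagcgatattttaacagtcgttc
Plin5: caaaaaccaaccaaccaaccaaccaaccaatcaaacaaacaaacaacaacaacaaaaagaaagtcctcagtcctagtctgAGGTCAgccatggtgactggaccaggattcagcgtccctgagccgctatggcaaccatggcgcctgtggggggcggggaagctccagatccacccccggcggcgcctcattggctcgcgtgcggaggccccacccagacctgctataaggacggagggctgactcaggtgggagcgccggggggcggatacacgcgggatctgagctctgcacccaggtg

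A table entry was found for 9 of the 10 genes, with 13 promoter windows in all. DR1 was found in 1 of the 13, against 3.86% of all 32851 windows. AGGTCA on either strand was found in 4 of the 13, in Plin2, Bscl2 and both windows of Plin5, against 16.3% of all. The cyclic AMP response element TGACGTCA and its core TGACG, searched on both strands, were found in 0 of the 13, against 1.79% and 20.8% of all windows. These letters are descriptions of the windows, which do not reach beyond 250 bases before a start.

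Cidea encodes a protein that drives droplet fusion in brown adipocytes. It had 1064, 1393, 1606 and 1164 CPM in cKO replicates 1 to 4 and 1416, 1362, 1701 and 1234 CPM in WT replicates 1 to 4. The highest library was WT and the lowest was cKO, with the other libraries interleaved. On the log2 scale cKO over WT was -0.13 (bounds -0.45 and 0.20, edgeR adjusted p = 0.937), negative under all 18 alternatives. The gene (ENSMUSG00000024526) spans 67343604 to 67367785 on the plus strand of chromosome 18.

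Cidec, which enlarges droplets by lipid transfer and is known from white fat, had 603, 862, 1105 and 799.9 CPM in cKO replicates 1 to 4 and 1022, 825, 870 and 797 CPM in WT replicates 1 to 4. The cKO group held both extremes, with a coefficient of variation of 24.6%, against 11.4% in WT. Its fold of 0.959 had bounds of 0.747 and 1.23 (95%, edgeR adjusted p = 0.977). Cidec (ENSMUSG00000030278) spans 113424634 to 113435760 on the minus strand of chromosome 6.

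The lowest Cidea and Cidec values were both in cKO replicate 1, which also had the most skeletal muscle transcript. The 14 muscle markers summed to 11660 CPM in that library and the 6 adipocyte markers to 9332 CPM, the lowest of any library. In the tissue as a whole, fewer adipocytes and less RNA of a gene per adipocyte cannot be told apart. In the same library Plin1 was at 1175 CPM, the highest of the cKO group. The 5 white fat-enriched markers summed there to 478 CPM, the highest of any library. Without that library the log2 fold change of Cidec was 0.077 and that of Cidea -0.033. Other libraries moved these values too. Without cKO replicate 3, where muscle markers summed to 159 CPM, Cidec was at -0.22 and Cidea at -0.24. Without WT replicate 3 Cidea was at -0.030 and Cidec at -0.062. WT replicate 4 had the most muscle transcript of its group, at 8960 CPM, and the lowest adipocyte marker sum, at 10820 CPM. It also had the lowest Cidea and Cidec of that group, at 1234 and 797 CPM. In cKO, replicate 2 had more muscle transcript than replicate 4, at 3243 and 2440 CPM, and also more Cidea and Cidec. The part of muscle in these values was not tested.

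Cideb, known from liver, where it acts in lipoprotein loading, was near the lower end of what the libraries could measure, with 25 to 140 estimated counts per library. It ran from 2.17 to 5.97 CPM in cKO and from 1.79 to 4.35 CPM in WT, and its log2 fold change of 0.043 had a 95% interval of -0.71 to 0.80 (edgeR adjusted p = 0.992). Its counts are uncertain for another reason. Cideb (ENSMUSG00000022219, chromosome 14, 55754050 to 55758458, minus strand) overlaps the end of Nop9 on the opposite strand. Of its 31-base sequences 72.8% also occur in Nop9 transcripts, so unless strand was used, reads from that shared part cannot be told apart. Nop9 stood at 9.33 ± 0.645 CPM in cKO and 10.2 ± 1.07 CPM in WT. The 5 hepatocyte markers summed to 132 to 521 CPM in cKO and 154 to 511 CPM in WT. The other 9 genes shared 0% to 12.6% of their 31-base sequences with any other gene, Bscl2 the most.

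Fitm2 helps to partition triglyceride into budding droplets. It had 185, 234.5, 203 and 207 CPM in cKO replicates 1 to 4 and 200.2, 181, 163 and 198 CPM in WT replicates 1 to 4. In cKO 3 of 4 libraries stood above every WT library, and cKO replicate 1 stood among the controls. Its fold of 1.12 had bounds of 0.940 and 1.33 (95%, edgeR adjusted p = 0.901), with a log2 value positive under all 18 alternatives and past the test under none. Fitm2 (ENSMUSG00000048486) spans 163466379 to 163472629 on the minus strand of chromosome 2.

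Bscl2, whose product seipin sits at the junction of the endoplasmic reticulum and the droplet, had 136, 165, 191.5 and 160 CPM in cKO replicates 1 to 4 and 174, 153, 180.0 and 135 CPM in WT replicates 1 to 4. The groups covered nearly the same range, and the fold was 1.02 (95% interval 0.832 to 1.24, edgeR adjusted p = 0.990). Bscl2 (ENSMUSG00000071657) spans 8837467 to 8848683 on the plus strand of chromosome 19, where it overlaps Gng3 on the other strand.

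No shift in the make-up of either family passed the test between cKO and WT. Each gene's counts per kilobase were taken as a share of its family, 8 shares in all, and a two-sided exact permutation test over the libraries was run on each, which cannot give a p below 0.0286. Among perilipins, Plin1 took 36.95% ± 1.68 in cKO and 34.8% ± 3.23 in WT (SD, n = 4 each), a difference of 2.15 percentage points (exact permutation p = 0.371). Plin2 took 29.6% ± 3.11 in cKO and 28.9% ± 4.76 in WT (exact permutation p = 0.8286). Plin4 took 16.9% ± 2.43 in cKO and 17.7% ± 2.08 in WT (exact permutation p = 0.629), and Plin3 4.45% ± 0.377 in cKO and 4.36% ± 0.114 in WT (exact permutation p = 0.743).

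The share of Plin5 was 10.7%, 14.7%, 10.8% and 12.2% in cKO replicates 1 to 4 and 10.2%, 14.5%, 17.99% and 14.3% in WT replicates 1 to 4. Replicate 1 of WT had the lowest share of all 8 libraries and replicate 3 of WT the highest, so the groups overlapped (difference -2.15 percentage points, exact permutation p = 0.371). Without WT replicate 3 the difference was 0.734 percentage points for Plin1 and -0.899 for Plin5, and without WT replicate 1 it was -3.50 for Plin5. Per count, Plin5 stood to Plin1 at 0.148 ± 0.0297 in cKO and 0.187 ± 0.0562 in WT (exact permutation p of the log2 ratio 0.314), and Plin4 to Plin1 at 0.570 ± 0.0780 in cKO and 0.632 ± 0.0460 in WT (exact permutation p = 0.257). Plin1 to Plin2 was 1.67 ± 0.218 in cKO and 1.64 ± 0.400 in WT (exact permutation p = 0.800). These are 3 of 4 ratios tested.

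Among CIDE genes, Cidea took 72.2% ± 1.88 in cKO and 72.8% ± 2.82 in WT, Cidec 27.7% ± 1.85 in cKO and 27.1% ± 2.80 in WT, and Cideb 0.142% ± 0.0403 in cKO and 0.132% ± 0.0460 in WT (SD, n = 4 each, exact permutation p = 0.686, 0.686 and 0.743). The share of Cidea ran from 70.6% to 74.5% in cKO and from 69.65% to 76.4% in WT. The count ratio of Cidea to Cidec, the fourth ratio, ran from 1.45 to 1.76 in cKO and from 1.39 to 1.96 in WT, and was 1.57 ± 0.149 in cKO and 1.64 ± 0.239 in WT (exact permutation p = 0.714).

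**Figure D3:**
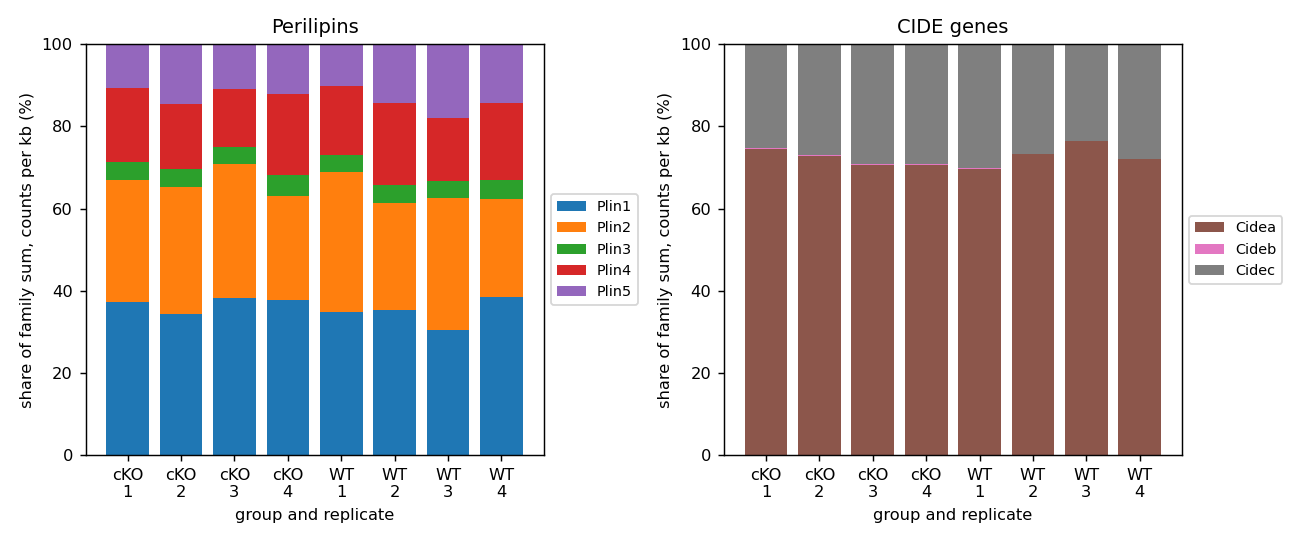
Share (%) of each gene in the summed counts per kilobase of the perilipins (left) and of the CIDE genes (right), 1 bar per library, cKO replicates before WT replicates. The genes keep 1 order by share in the perilipin bars of 7 libraries, WT replicate 3 has Plin2 above Plin1 and Plin5 above Plin4, Cideb is too small to see, and the Plin5 share runs from 10.2% to 17.99%.

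Summed over the family, perilipins stood at 648.5 ± 21.95 CPM per kb in cKO and 679.5 ± 66.1 CPM per kb in WT, and CIDE genes at 1629 ± 327 CPM per kb in cKO and 1757 ± 198 CPM per kb in WT (SD, n = 4 each, no test). These values depend on the scaling. When counts per kilobase were instead scaled to 1 fixed sum in every library, the CIDE sum was 2683 ± 444 in cKO and 3419 ± 427 in WT, and the perilipin sum 1078 ± 113 in cKO and 1321 ± 120 in WT. On that scale the median of all genes tested moved by -0.23 (log2), and transcripts of the mitochondrial genome, short and abundant, took 59.4% to 63.2% of the sum in cKO and 54.9% to 59.35% in WT.

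No pair of the genes passed a test for varying together between libraries after adjustment. Over the 45 pairs of members, 6 had an unadjusted exact permutation p under 0.05 for Pearson's r of log2 CPM over the 8 libraries, and 0 passed after adjustment over the 45. All pairs share the same libraries and scaling. Cidea correlated with Bscl2 (r = 0.840, p = 0.0108, adjusted p = 0.187; rho = 0.857, p = 0.0107, exact permutation), with r = 0.761 without the 2 libraries farthest from the median of Cidea. Cidec also correlated with Bscl2 (r = 0.838, p = 0.00769, adjusted p = 0.187; rho = 0.929, p = 0.00223, exact permutation), with r = 0.652 without the 2 libraries farthest from the median of Cidec. Cidea and Cidec had r = 0.783 (p = 0.0203, adjusted p = 0.229; rho = 0.905, p = 0.00456, exact permutation), with r = 0.872 without 2.

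Plin1 and Plin5 had a negative correlation. Over the 8 libraries r was -0.824 (p = 0.0125, adjusted p = 0.187; rho = -0.786, p = 0.0279, exact permutation), and -0.752 without WT replicates 3 and 1, the farthest from the median of Plin1. WT replicate 3 had the lowest Plin1 and the highest Plin5, at 934.9 and 247 CPM, and WT replicate 1 had the highest Plin1, at 1259 CPM, with the lowest Plin5 of its group, at 165 CPM. As deviations from the group means, a setting chosen after seeing the data, r was -0.960 (exact permutation within groups, p = 0.00347, adjusted p = 0.117). After adjustment over the 45 pairs neither value passed. Permutation within groups has 576 pairings and cannot give a p below 0.001736. On that setting 1 pair alone could therefore not pass the adjustment, whatever its r.

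**Figure D4:**
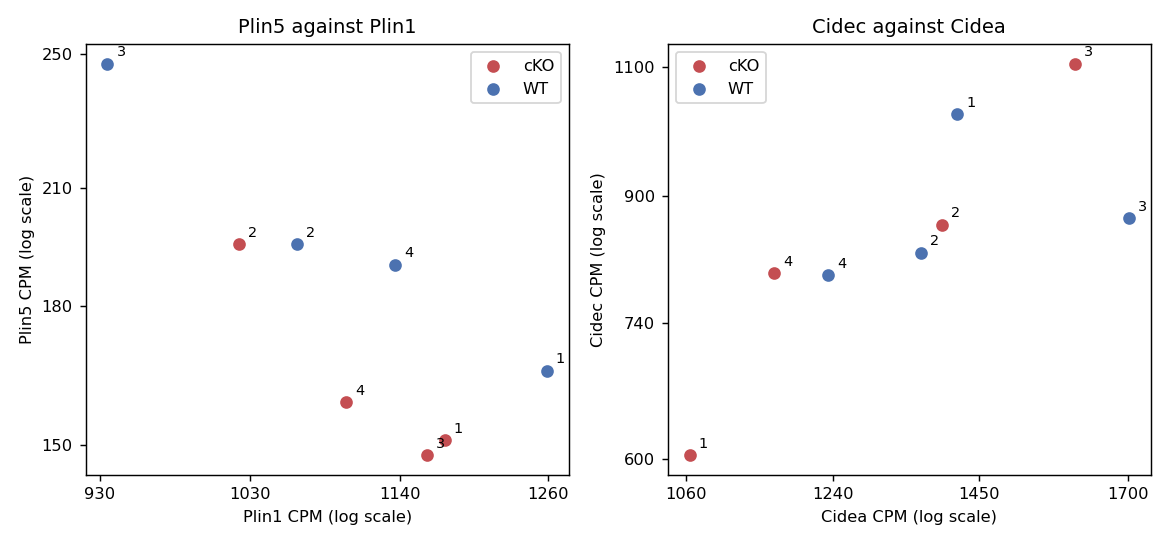
CPM of Plin5 against Plin1 (left) and of Cidec against Cidea (right), both axes on a log scale that does not start at 0, with cKO libraries in red and WT libraries in blue, numbered by replicate. Libraries with more Plin1 tend to have less Plin5 in each group, and libraries with more Cidea tend to have more Cidec, with WT replicate 3 farthest from that order.

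The genes whose log2 CPM ran most like these over the 8 libraries were looked up among 8028 genes of at least 10 CPM on average. Since the highest of so many correlations was taken, they are given with no test. Cidea ran most like Denr (r = 0.980) and Cox6b1, a subunit of cytochrome c oxidase (r = 0.980). Cidec ran most like Fkbp5, a glucocorticoid-inducible chaperone (r = 0.980), and Pgrmc1 (r = 0.956). Plin5 ran most like Lgals4, a galectin (r = 0.989), and Ndufaf8 (r = 0.966), and Plin2 most like Gpi1, an enzyme of glycolysis (r = 0.956). Fitm2 ran most like Pdp2, a phosphatase of pyruvate dehydrogenase (r = 0.991), and C1galt1 (r = 0.981). For Plin1 they were Usp10 and Bcap29 (r = 0.942 for both), for Plin3 Phf20 (r = 0.927) and Zmiz1 (r = 0.915), for Plin4 Map2k1 (r = 0.921) and Cspg4 (r = 0.919), for Cideb Pa2g4 (r = 0.955) and Jmjd6 (r = 0.943), and for Bscl2 Hist2h2aa2 (r = 0.971) and Cdk2ap2 (r = 0.960).

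Other genes of the droplet pathway also stayed short of the edgeR test. Of 12 genes of droplet biogenesis and triglyceride synthesis edgeR called 0 in either direction. Log2 fold changes were positive for 7 and negative for 5, with a median of 0.10. An unadjusted edgeR p under 0.05 was found for 2 of the 12, against 5.60% of all genes. Those were Dgat2, the main enzyme of the last step of triglyceride synthesis in fat, at 1187 ± 174 CPM in cKO and 1538 ± 188 CPM in WT (log2 fold change -0.37, edgeR adjusted p = 0.882), and Acsl3, which activates fatty acids at forming droplets, at 55.2 ± 8.81 CPM in cKO and 40.97 ± 9.50 CPM in WT (0.43, edgeR adjusted p = 0.882). The groups overlapped for both. DESeq2 and limma-voom called 0 of the 12.

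Of 8 genes of lipolysis at the droplet edgeR called 0, with 5 positive, 3 negative and a median of 0.015. An unadjusted edgeR p under 0.05 was found for 2 of the 8, against 5.60% of all genes. Abhd5, the lipase activator that perilipin 1 holds at rest, ran from 93.8 to 200.9 CPM in cKO and from 105 to 135 CPM in WT (log2 fold change 0.50, edgeR adjusted p = 0.884, with a 95% interval of 0.015 to 0.99). In cKO 3 libraries lay above every WT library and 1 below them all. G0s2, the lipase inhibitor, did not overlap between groups, as was the case for 3.50% of all genes. It was at 251 to 261 CPM in cKO and 322 to 423 CPM in WT (log2 fold change -0.46, edgeR adjusted p = 0.497). DESeq2 called it, as 1 of the 8, against 0.316% of all genes (DESeq2 adjusted p = 0.0167). Limma-voom called 0 of the 8.

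Of 20 genes of the droplet surface and its contacts edgeR, DESeq2 and limma-voom called 0, with 0 at an unadjusted edgeR p under 0.05, 14 positive, 6 negative and a median of 0.057. Its most abundant members were the caveolar genes Cav1, at 678 ± 60.1 CPM in cKO and 626 ± 37.7 CPM in WT (edgeR adjusted p = 0.920), and Cavin1, at 342 ± 45.4 CPM in cKO and 409 ± 35.9 CPM in WT (edgeR adjusted p = 0.886).

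The marker genes of brown fat were abundant, and transcripts of skeletal muscle varied between libraries. The 11 brown adipocyte markers summed to 4153 to 7191 CPM in cKO and 4645 to 5220 CPM in WT, with Ucp1, the uncoupling protein that defines brown fat, at 2341 to 4545 CPM in cKO and 2233 to 3012 CPM in WT. Of these 11, 9 had a positive log2 fold change and 0 an edgeR call. An unadjusted edgeR p under 0.05 was found for 4 of the 11, against 5.60% of all genes. Prdm16, 1 of them, was called by DESeq2, against 0.316% of all genes, and by edgeR without a count filter, against 0.262%. The 6 adipocyte markers summed to 9332 to 14380 CPM in cKO and 10820 to 12530 CPM in WT. The 14 skeletal muscle markers ran from 159 to 11660 CPM in cKO and from 44.2 to 8960 CPM in WT, all 14 with a positive log2 fold change and 0 called by edgeR. Plin4 and Plin5 are also expressed in muscle. The libraries with the most muscle transcript were cKO replicate 1 and WT replicate 4, and both genes stood there inside the range of the other libraries of the same group. How much muscle adds to Plin4 and Plin5 was not tested. The white fat, macrophage, endothelial, fibroblast, erythroid and hepatocyte lists had 0 genes called by edgeR or DESeq2 and 0 at an unadjusted edgeR p under 0.05, and no marker was at 0 in all libraries. Libraries held 10713043 to 16243318 estimated counts in cKO and 12977094 to 32437214 in WT, with WT replicate 1 the deepest.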

How the data were processed

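RNA of brown fat was sequenced by the submitters, 4 cKO and 4 WT libraries. The deposited table holds estimated counts per gene identifier. Per the submitters' processing notes the tools were Salmon, StringTie and edgeR and the build GRCm38. Their versions, the annotation release, any filter and the strand setting were not given in the sources used here. Identifiers were named from GENCODE M21, which matched 54131 of 54385 (99.53%). Estimated counts were rounded. The test was edgeR 4.0.16 quasi-likelihood with its default expression filter, which kept 14553 genes, TMM scaling and Benjamini-Hochberg adjustment at 0.05; CPM are TMM-scaled. Alternatives were DESeq2 1.42.0, limma 3.58.1 voom, other filters and scalings, a replicate block, leaving out each library, counting WT replicate 4 as cKO, and removing mitochondrial genes. Levels per kilobase used all annotated exon, or the longest transcript. Shares, ratios and pairs used two-sided exact permutation tests computed with numpy 2.4.6, with ranks from scipy 1.17.1. Log2 CPM for pairs used a prior count of 2. Promoters came from RefSeq tables on GRCm38.p6. The edgeR steps were tested on simulated data. Of same-group library pairs none agreed within sampling noise. Genes named beside the members were those of each pathway list with an unadjusted p under 0.05, or else its 2 most abundant, the 2 genes that ran most like each member (1 of these is not reported here), Ucp1, Adipoq and Adcy3; Prdm16 was named after its value was seen. The members and lists were chosen with earlier results of these data known. Member proteins were not analysed here.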

Additional observations from a re-analysis of the deposited data

Results flagged for a closer look

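Plin3 in WT replicate 1 stood apart from the other libraries of its group. It was at 127.1 CPM there, against 105.7, 106.3 and 109.0 CPM in WT replicates 2, 3 and 4, and the gap to the nearest of these was 0.844 of the whole range of the group, above Dixon's critical value for 4 samples. WT replicate 1 was also the most deeply sequenced library. Among 44 groups of values examined this was the 1 that passed, and chance passes about 1 in 20. Without WT replicate 1 the log2 fold change of Plin3 (cKO over WT) was 0.028.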

How the results depend on the processing

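The member genes had 0 calls under each of the 18 alternatives, which also left the signs of Plin4, Plin5, Cidea and Fitm2 as they were. Over all genes edgeR called 10, between 8 and 14 with 1 library left out, DESeq2 46, edgeR without a filter 93, and edgeR with WT replicate 4 counted as cKO 1; DESeq2 called 1 lipolysis gene, where edgeR called 0. Adcy3 was at -2.23 with a replicate block (adjusted p = 0.225) and at -1.26 with WT replicate 4 counted as cKO (adjusted p = 0.747). Deviations of same-numbered libraries correlated at -0.464, 0.035, 0.409 and 0.0016, and those of differently numbered libraries at -0.566 to 0.469. Whether replicate numbers pair the libraries cannot be settled from these values. The block called 7 genes and 0 members. Small log2 fold changes turned sign: Plin3 was 0.020 with quality weights, Cideb -0.032 by limma-voom and Bscl2 -0.098 with WT replicate 4 counted as cKO. With 1 library left out they ran from -0.046 to 0.093 for Plin1, -0.15 to 0.12 for Plin2, -0.076 to 0.028 for Plin3, -0.34 to 0.23 for Cideb, -0.22 to 0.077 for Cidec and -0.064 to 0.11 for Bscl2. Differences in share (percentage points) with 1 library left out ran from 0.734 (without WT replicate 3) to 3.35 (without WT replicate 4) for Plin1, -3.50 (without WT replicate 1) to -0.899 (without WT replicate 3) for Plin5, -1.003 to 2.33 for Plin2, -0.0805 to 0.222 for Plin3, -1.67 to 0.150 for Plin4, -1.71 to 0.544 for Cidea, -0.0103 to 0.0239 for Cideb and -0.550 to 1.69 for Cidec, and with WT replicate 4 counted as cKO were 3.64 for Plin1 (exact permutation p = 0.0536), -2.13 for Plin2 and 0.0121 for Plin4. Log2 ratios with 1 library left out ran from -0.13 to 0.040 for Cidea to Cidec, -0.064 to 0.18 for Plin1 to Plin2, -0.46 (without WT replicate 1) to -0.13 (without WT replicate 3) for Plin5 to Plin1 and -0.22 (without cKO replicate 4, exact permutation p = 0.0571) to -0.060 (without cKO replicate 3) for Plin4 to Plin1. Differences in summed level on the scale with a fixed sum, chosen after seeing the data, were -243 for perilipins, -736 for CIDE genes and -991 for all 10, against -31.0, -128 and -153 in CPM per kb. The causes were not tested. Depth limits Cideb most, with as few as 25 counts in a library.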
